A study of Mus musculus with 2 samples.

Results

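The genes described here are 40 heat shock and chaperone genes, listed by symbol and all found among the 31053 genes of the count matrices. They encode 8 cytosolic chaperones and co-chaperones whose transcription is known to be induced by stress, 11 other cytosolic members, 6 subunits of the chaperonin TRiC, 3 mitochondrial chaperones, 10 chaperones and folding enzymes of the endoplasmic reticulum (ER) and the heat shock factors Hsf1 and Hsf2. They were listed by name, with no threshold on a measured value. The list and its grouping were, however, chosen with earlier results of these data known. The split of the cytosolic genes follows textbook knowledge and does not mean that the other 11 are not induced by stress. Levels were taken from 2 single-cell RNA-sequencing libraries of live CD45+EpCAM-MHC-II- cells sorted from the ear epidermis of wild-type FVB/NJ female mice, 8 weeks old, 7 d after antibody was given into the ear skin. The first group received an isotype control and the other an antibody against Skint1, a butyrophilin-like protein of keratinocytes that selects dendritic epidermal T cells (DETCs), and each group was 1 library. The legend to these data has n = 1 per group, and n counts mice there unless stated otherwise. Transcripts were counted as unique molecular identifiers (UMIs) at the 3′ end of the RNA.

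Chaperones bind unfolded or newly made proteins and, by cycles of ATP hydrolysis, keep them from aggregating and help them fold. In the cytosol, HSP70 and HSP90 proteins work with J-domain co-chaperones, and heat, oxidative damage and other proteotoxic stress release the transcription factor HSF1, which binds heat shock elements and switches on the inducible members. Mitochondria use their own HSP70 and an HSP60–HSP10 chamber. In the ER, BiP, GRP94, the lectin chaperones and the protein disulfide isomerases fold secreted and membrane proteins, and their genes respond to the unfolded protein response through ER stress elements. DETCs are γδ T cells that stay within the epidermis, in contact with keratinocytes.

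Of all barcodes, those that held 500 to 2500 genes and no more than 12% of UMIs from mitochondrial genes were analysed, 4242 from the isotype and 5961 from the Skint1 antibody library. DETCs (at least 3 UMIs of Trdc and at least 3 of the CD3 chains, with no Trac, Cd4, Cd8a or Cd8b1) numbered 3544 and 4945, αβ T cells (a Trac UMI and no Trdv4) 197 and 213, and innate lymphoid cells (ILCs, at least 3 UMIs of Il7r, Rora and Gata3 together, at most 2 of the CD3 chains and no Trdv4) 82 and 139. Only markers that the gates did not use can check the classes. The 4 such DETC markers (Tcrg-V5, Tcrg-C1, Cd7 and Fcer1g) summed to 6152 and 6792 counts per 1000000 UMIs (CPM) in DETCs, beside 799 and 1202 CPM in αβ T cells and 162 and 138 CPM in ILCs. Tcrg-V5 alone stood at 59.0 and 62.6 CPM in DETCs. The gate asks for neither Tcrg-V5 nor Trdv4 and may hold some dermal γδ T cells. Of the DETCs, 3133 and 4146 held a Trdv4 UMI, and markers of dermal γδ T cells summed to 70.2 and 70.1 CPM in the class. Of the αβ T markers, Cd5, Cd6 and Cd28 summed to 391 and 362 CPM in αβ T cells and to 3.55 and 2.94 CPM in DETCs, whereas Trbc1 and Trbc2 were high in DETCs too (1491 and 1250 CPM for Trbc1). The 6 ILC markers outside the gate (Il1rl1, Kit, Icos, Il2ra, Klrb1b and Ncr1) summed to 311 and 356 CPM in ILCs, 487 and 338 CPM in αβ T cells and 170 and 148 CPM in DETCs, so they did not set ILCs apart from αβ T cells. In Skint1 antibody ILCs the keratinocyte markers summed to 4558 CPM and the myeloid markers to 1841 CPM, and the name ILC stands for the gate only. The median DETC held 4027.5 UMIs with isotype and 3577 with Skint1 antibody, with 5.44% and 5.60% mitochondrial UMIs. In all, the 2 matrices held 27272211 and 32450957 UMIs, and 5 kept barcodes occurred in both libraries. With 1 library per treatment, antibody and library cannot be told apart and no test between treatments exists. Cells are not replicates, so the 95% intervals given below cover counting error only.

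In DETCs the genes listed made up 1.57% of all UMIs with isotype and 1.32% with Skint1 antibody. The stress-inducible cytosolic genes summed to 6023 CPM (5983 to 6063) with isotype and to 4409 CPM (4379 to 4439) with Skint1 antibody, a log2 ratio of −0.45 (−0.46 to −0.44). This was the group with the widest gap between libraries. The other cytosolic genes stood at 5687 and 5057 CPM (−0.17, −0.18 to −0.16), and the mitochondrial chaperones at 555 and 467 CPM (−0.25, −0.29 to −0.20). TRiC, at 738 and 700 CPM (−0.08, −0.11 to −0.04), and the ER group, at 2695 and 2525 CPM (−0.09, −0.11 to −0.08), differed least. All 5 sums were lower in the Skint1 antibody library, but the ER sum was so through Hspa5, since the other 9 ER genes summed to 1694 and 1740 CPM (0.039, 0.015 to 0.063). The interval of the inducible cytosolic genes overlapped with none of the others.

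**Figure D1:**
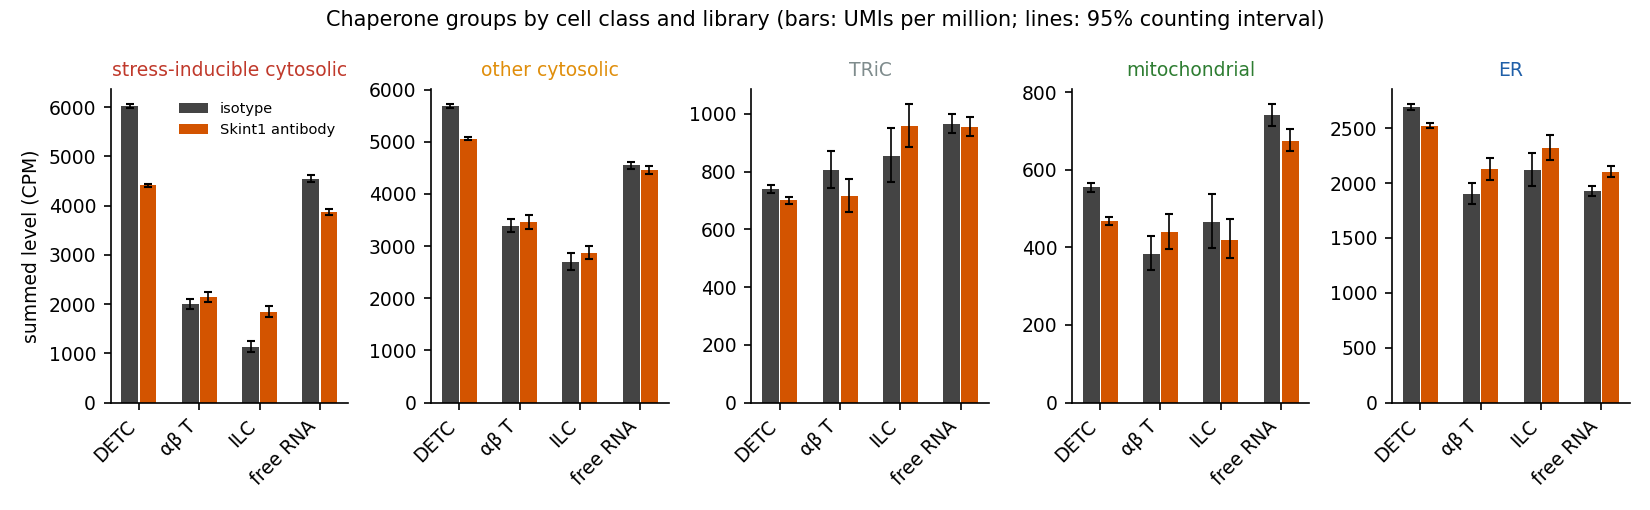
Summed level of each chaperone group in CPM (y axis, starting at 0 and scaled separately in each panel) in DETCs, αβ T cells, ILCs and barcodes of 1 to 100 UMIs that hold free RNA, with 1 bar per library and 95% counting intervals as lines. The stress-inducible cytosolic genes stood at 6023 and 4409 CPM in isotype and Skint1 antibody DETCs, above αβ T cells and ILCs of both.

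Hspa1a and Hspa1b encode the inducible cytosolic HSP70, the textbook target of HSF1. Hspa1a stood at 1715 CPM (1694 to 1737) in isotype DETCs and at 1157 CPM in Skint1 antibody DETCs, a log2 ratio of −0.57 (−0.59 to −0.54). Hspa1b stood at 1790 and 1224 CPM, a ratio of −0.55 (−0.57 to −0.52). Both were thus lower by a similar factor, and they ranked 8 and 10 from the lowest among the 2852 genes at 50 CPM or more in DETCs. The genes lie side by side on chromosome 17 (Hspa1a at chr17:34969190-34972156 and Hspa1b at chr17:34956436-34959238, both on the minus strand, GRCm38) and their coding sequences are nearly identical, so that the split of reads between them is uncertain and they are not independent measurements. Their promoters are shown because they are near copies too: of the 250 bases before the RefSeq start (GRCm38.p6, minus strand, chr17:34972157-34972406 for Hspa1a and chr17:34959239-34959488 for Hspa1b), 247 (98.8%) were identical. Capitals mark a pair of inverted heat shock units, GAA and then TTC with any 2 bases between them, whose first base lay at −104 in each.
Hspa1a: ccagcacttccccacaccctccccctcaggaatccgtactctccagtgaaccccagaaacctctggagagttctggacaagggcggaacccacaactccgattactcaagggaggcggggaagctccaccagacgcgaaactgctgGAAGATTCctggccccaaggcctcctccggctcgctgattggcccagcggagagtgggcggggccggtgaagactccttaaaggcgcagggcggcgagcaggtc
Hspa1b: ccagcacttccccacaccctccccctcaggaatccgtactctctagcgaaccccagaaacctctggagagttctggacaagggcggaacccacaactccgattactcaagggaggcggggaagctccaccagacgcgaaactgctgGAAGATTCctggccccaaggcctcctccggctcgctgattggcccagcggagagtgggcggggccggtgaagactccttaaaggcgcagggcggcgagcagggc

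Hsph1 (HSP110), a nucleotide exchange factor that helps HSP70 release its substrates, had the lowest ratio of the list. Its level was 115 CPM with isotype and 64.7 CPM with Skint1 antibody (log2 ratio −0.83, −0.93 to −0.72), rank 4 from the lowest. Hsp90aa1, the inducible cytosolic HSP90, stood at 1673 and 1343 CPM (−0.32, −0.34 to −0.29), just short of the size limit of 0.32 on the log2 scale that is used further on. The J-domain proteins that deliver substrates to HSP70 differed less. Dnajb1 stood at 598 and 514 CPM (−0.22, −0.26 to −0.18) and Dnajb4 at 78.9 and 70.5 CPM (−0.16, −0.28 to −0.05). Without Hspa1a and Hspa1b the remaining 6 inducible genes summed to 2517 and 2027 CPM (−0.31, −0.33 to −0.29).

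The HSP70 co-chaperone Bag3 and the small heat shock protein gene Hspb1 were scarce. Bag3 stood at 25.6 and 17.9 CPM (−0.51, −0.73 to −0.30) and Hspb1 at 26.5 and 17.9 CPM (−0.57, −0.78 to −0.35). Keratinocytes are known to express much Hspb1, and it stood at 142 and 154 CPM in barcodes of 1 to 100 UMIs, which hold RNA free in the suspension. After thinning, 2.82% (2.29 to 3.43) and 2.02% (1.64 to 2.47) of DETCs held an Hspb1 UMI, and for keratin genes, which T cells should lack, the shares were 1.52% and 1.92% for Krt10, 0.938% and 1.43% for Krt14 and 0.557% and 0.696% for Krt5. With isotype the shares of Krt10, Krt14 and Krt5 all lay below the interval of the Hspb1 share. In the Skint1 antibody library the Krt10 share lay inside the interval of the Hspb1 share and those of Krt14 and Krt5 below it. The source of Hspb1 in DETCs was not tested.

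The other cytosolic genes had ratios from −0.33 to −0.02, a range that overlapped with that of the inducible genes. Hspa8 (HSC70), the constitutive HSP70, stood at 1732 and 1497 CPM (−0.21, −0.23 to −0.19), and Hsp90ab1, the constitutive HSP90, at 2181 and 1965 CPM (−0.15, −0.17 to −0.13). The J-domain gene Dnaja1 stood at 1078 and 946 CPM (−0.19, −0.22 to −0.16). Ahsa1, which stimulates the HSP90 ATPase, stood at 75.2 and 63.3 CPM (−0.25, −0.37 to −0.13), and Stip1 (HOP), which links HSP70 to HSP90, at 74.8 and 66.4 CPM (−0.17, −0.29 to −0.05). These 5, of 8 genes at 50 CPM or more, had intervals below 0, beside 24.0% of all 2852 genes at that level (12.7% had intervals above 0). Over all groups 18 of the 33 listed genes at that level had intervals below 0 and 2 above. Dnaja4, under it, stood at 47.7 and 38.0 CPM (−0.33, −0.48 to −0.18). The intervals of Hspa4, Hspa14, Dnaja2, Dnajb6 and Chordc1 included 0, with ratios from −0.08 for Chordc1 to −0.02 for Dnaja2.

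TRiC is a closed chamber that folds actin and tubulin. Of its 6 listed subunits, Cct5 (147 and 130 CPM, −0.17, −0.26 to −0.09) and Cct2 (172 and 157 CPM, −0.13, −0.21 to −0.05) had intervals below 0, a share near the 24.0% of all genes. Cct3, Cct4, Cct8 and Tcp1 lay between −0.04 and −0.00, each with 0 inside its interval. The median of the subunits (−0.03) thus lay close to that over all genes tested (−0.03).

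All 3 mitochondrial chaperones were lower in the Skint1 antibody library. Hspd1 (HSP60) stood at 149 and 120 CPM (−0.31, −0.40 to −0.23) and its lid Hspe1 (HSP10) at 344 and 296 CPM (−0.22, −0.27 to −0.16). Hspa9, the mitochondrial HSP70, stood at 61.4 and 51.5 CPM (−0.25, −0.39 to −0.12). Hspd1 and Hspe1 are transcribed away from each other on chromosome 1 (chr1:55077835-55088243 on the minus strand and chr1:55088132-55091307 on the plus strand), and although these annotated spans overlap, 215 bases separate their RefSeq starts. This stretch (GRCm38.p6, chr1:55087933-55088147, plus strand) is shown because it holds a full heat shock element of 3 alternating units in both arrangements, the one that starts with TTC and the one that starts with GAA, which overlap and are given in capitals.
Hspd1-Hspe1: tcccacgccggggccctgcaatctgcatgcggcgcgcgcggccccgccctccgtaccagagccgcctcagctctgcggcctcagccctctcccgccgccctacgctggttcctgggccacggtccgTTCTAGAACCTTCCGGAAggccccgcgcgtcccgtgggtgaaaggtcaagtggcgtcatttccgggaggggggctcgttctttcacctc

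Of the 10 ER genes, 2 had intervals below 0 and 2 above, near the shares over all genes (24.0% and 12.7%). Hspa5 (BiP), the ER HSP70 and a marker of the unfolded protein response, stood at 1001 and 784 CPM (−0.35, −0.39 to −0.32), rank 31 from the lowest, and its J-domain partner Dnajb9 at 93.7 and 83.2 CPM (−0.17, −0.28 to −0.06). Hsp90b1 (GRP94), the ER HSP90, was higher at 364 and 392.3 CPM (0.11, 0.06 to 0.16), and the disulfide isomerase Pdia3 at 276 and 291 CPM (0.08, 0.02 to 0.14). The other 6 members (Dnajb11, Dnajc3, Pdia4, Pdia6 and the lectin chaperones Calr and Canx) had ratios from −0.07 to 0.08 with 0 inside the interval. The median ratio of the 10 genes was 0.02. Hspa5 and Hsp90b1, whose ratios lay at opposite ends of the group, both hold an ER stress element within 250 bases of their start. The windows are chr2:34771840-34772089 (plus strand) for Hspa5 and chr10:86705445-86705694 (minus strand) for Hsp90b1, in GRCm38.p6, and capitals mark CCAAT and CCACG with any 9 bases between them, or the reverse complement.
Hspa5: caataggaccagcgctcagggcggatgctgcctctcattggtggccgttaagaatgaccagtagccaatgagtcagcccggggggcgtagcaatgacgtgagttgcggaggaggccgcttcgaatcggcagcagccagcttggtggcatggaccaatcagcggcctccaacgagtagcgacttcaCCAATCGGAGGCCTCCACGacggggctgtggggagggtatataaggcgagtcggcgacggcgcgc
Hsp90b1: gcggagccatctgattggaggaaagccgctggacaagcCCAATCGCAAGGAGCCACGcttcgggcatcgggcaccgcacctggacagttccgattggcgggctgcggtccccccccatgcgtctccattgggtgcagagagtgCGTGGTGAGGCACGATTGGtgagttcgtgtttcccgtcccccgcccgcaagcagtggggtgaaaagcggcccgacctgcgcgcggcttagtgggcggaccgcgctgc

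The heat shock factors were low in both libraries. Hsf1 stood at 22.4 and 21.7 CPM (−0.05, −0.26 to 0.17) and Hsf2 at 17.9 and 19.5 CPM (0.12, −0.11 to 0.36), so neither differed beyond counting error. HSF1 is known to be regulated mainly as a protein, which these data do not measure.

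Sequence motifs were searched on both strands in the RefSeq promoters, from 250 bases before to 50 after the start, of the 34 listed genes that could be matched. The heat shock element, taken as 3 alternating units of GAA and TTC with any 2 bases between neighbours and starting with either, occurred in 5 of them (Chordc1, Dnajb6, Hspd1, Hspe1 and Hsph1) and in 198 (0.603%) of 32851 promoters. In Hsph1 it read TTCTGGAAAGTTC (chr5:149636288-149636300, minus strand), with its first base at position 37 after the start. The shorter pair of 1 GAA and 1 TTC unit in either order with the same spacing, which is contained in the full element, occurred in 14 of the 34 and in 4946 (15.1%) of all promoters. By group it was present in 6 of 7 stress-inducible, 4 of 9 other cytosolic, 2 of 5 TRiC, 2 of 2 mitochondrial and 0 of 10 ER promoters. The matches of Hspd1 and Hspe1 are the same bases of 1 shared stretch, and Hspa1a and Hspa1b are near copies, so these counts hold such sites more than once. The ER stress element was present in 6 of 10 ER promoters (Calr, Canx, Dnajc3, Hsp90b1, Hspa5 and Pdia6) and in 0 of the other 24, against 39 (0.119%) of all. These matches describe the letters in the window and show no binding. Promoters of Cct4, Hsf1, Hsp90aa1, Hsp90ab1, Hspa8 and Hspa9 were not analysed here.

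With a size rule in place of a test (a log2 ratio of at least 0.32 in either direction), 33 of the 40 genes reached 50 CPM over both libraries and were compared with all 2852 genes at that level. Of the 33, 4 were past the rule as lower with Skint1 antibody (Hsph1, Hspa1a, Hspa1b and Hspa5), beside 1.51% of all genes (43 of 2852). None was past it as higher, beside 0.21% (6 of 2852). The list was chosen with earlier results of these data known, so these shares describe it and are no independent support. When the ratios were centred on their median, the counts over all genes became 33 lower and 10 higher and the same 4 listed genes stayed past the line. The median log2 ratio was −0.15 over the 33 genes and −0.03 over all genes, and 23 of the 33 lay below the latter. The medians by group were −0.43 for stress-inducible cytosolic, −0.25 for mitochondrial, −0.16 for other cytosolic, −0.03 for TRiC and 0.02 for ER genes. Hspa5 (−0.35) and Hsp90aa1 (−0.32) lay on either side of −0.32, and both changed sides with the processing. Of 10 alternatives, Hspa5 was not past it without the gene limit and with at most 5% mitochondrial UMIs. Hsp90aa1 was past it in these 2, without doublets and with the stricter gate that asks for a Trdv4 UMI. Hspd1 was past it with the mitochondrial limit and with equal weight per cell.

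**Figure D2:**
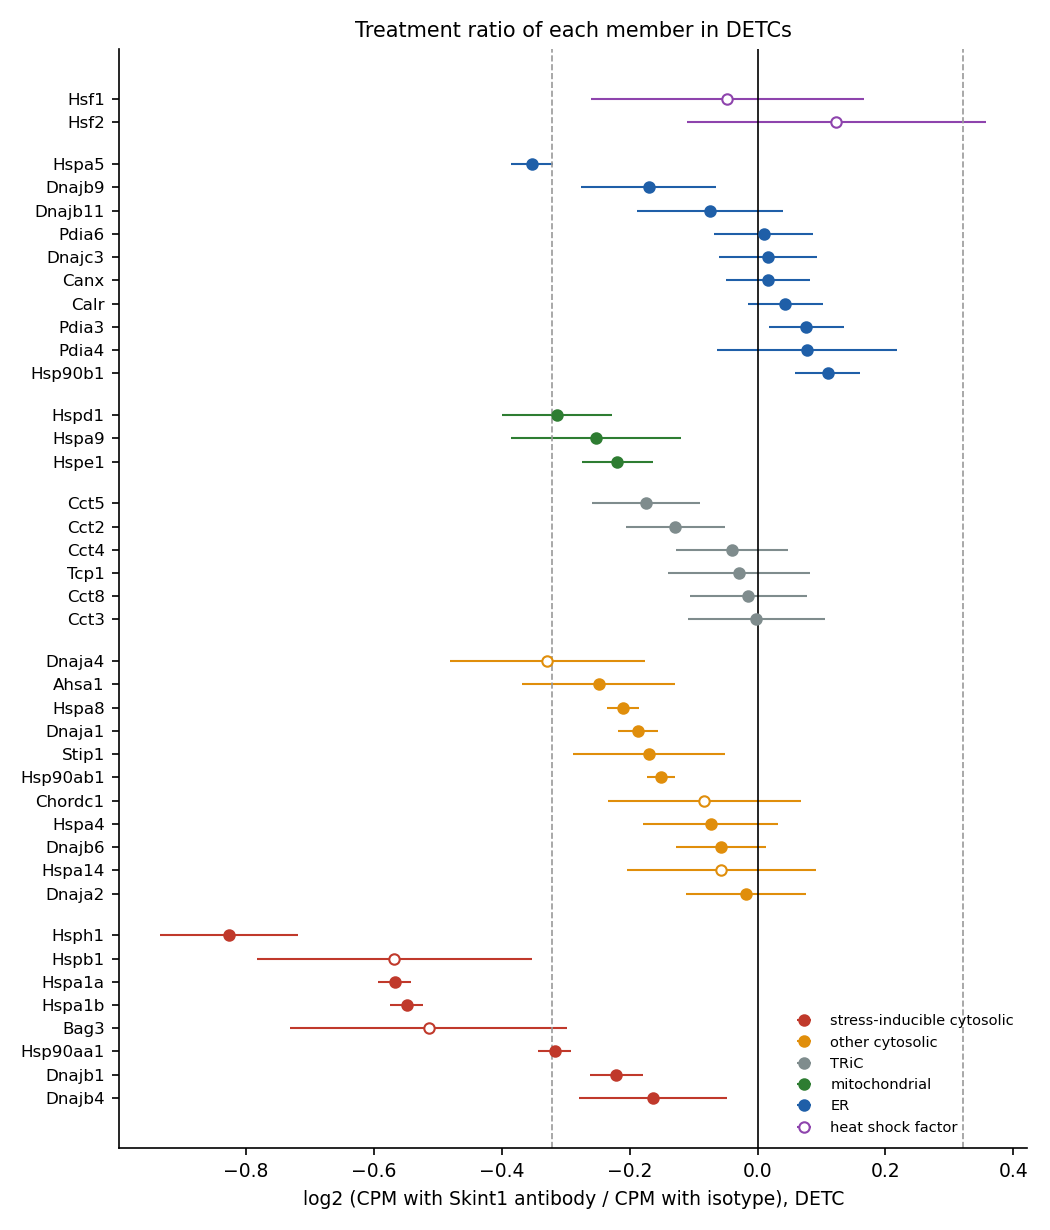
Log2 ratio of CPM in DETCs, Skint1 antibody over isotype, for each of the 40 genes grouped by compartment, with 95% counting intervals. Open circles are genes below 50 CPM and dashed lines mark the size rule at 0.32 in either direction. Hsph1 (−0.83), Hspa1a (−0.57) and Hspa1b (−0.55) lie farthest to the left among genes above that level, and of the ER genes Hspa5 alone lies left of the line.

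Further genes of the same pathways were taken from separate lists. Of 25 further heat shock and co-chaperone genes in the matrices, 12 reached 50 CPM, and 0 passed the size rule in either direction (1.51% and 0.21% of all genes did), with a median log2 ratio of −0.05. Below that level Hspa4l, an HSP110 relative, stood at 40.5 and 30.4 CPM (−0.41, −0.58 to −0.24), the J-domain gene Dnajb2 at 31.7 and 24.4 CPM (−0.38, −0.57 to −0.19) and the co-chaperone gene Bag2 at 13.4 and 10.5 CPM (−0.34, −0.64 to −0.05). Ubb, a ubiquitin gene known to be induced by heat, stood at 2388 and 2126 CPM (−0.17, −0.19 to −0.15). Of 25 genes of the unfolded protein response, 11 reached that level and 0 passed, with a median of −0.06. Of the 11, Atf4, Atf6, Ddit3, Herpud1 and Dnajc10 had intervals below 0 and Sdf2l1, an ER co-chaperone gene, above it (86.3 and 95.2 CPM, 0.14, 0.04 to 0.25), beside 24.0% and 12.7% of all genes. The stress transcription factor gene Ddit3 stood at 78.9 and 67.6 CPM (−0.22, −0.34 to −0.11) and Herpud1, which acts in ER-associated degradation, at 134 and 122 CPM (−0.14, −0.23 to −0.05). Of 14 further mitochondrial chaperones and proteases, with Hspa9 on that list too, 2 reached the level and 0 passed. Immediate early genes, which cell isolation is known to induce, summed to 12788 and 12872 CPM. Of their 14 members at the level, Atf3 was past the line as lower (209 and 142 CPM, −0.55, −0.63 to −0.48) and Egr1 as higher (305 and 399 CPM, 0.39, 0.33 to 0.44).

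Cells differed widely in the inducible genes. To compare them at 1 depth, each DETC was thinned to 2000 UMIs, which left out 134 and 202 shallower cells and kept 3410 and 4743. The median DETC then held 7 stress-inducible UMIs with isotype and 6 with Skint1 antibody, the cell at the 90th percentile 30 and 22, and the cell at the 99th percentile 59 and 45. Cells with at least 20 such UMIs were 21.4% (20.0 to 22.8) of isotype and 12.3% (11.4 to 13.2) of Skint1 antibody DETCs. Cells with none were 6.63% and 6.96%. Few cells held none in either library, so these shares say little about the low end. The lower quartile was 3 UMIs with isotype and 2 with Skint1 antibody, and the upper quartile 17 and 12. Without the 10% of thinned DETCs with most inducible UMIs the mean was 8.60 and 6.52 UMIs, beside 12.1 and 9.10 over all. The gap was thus not limited to the cells with most inducible UMIs. The share of DETCs with at least 1 stress-inducible UMI was 93.4% and 93.0%, and 97.3% and 96.6% without thinning.

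The variance-to-mean ratio over cells (Fano factor, 1 for Poisson counting) of the summed inducible UMIs was 14.8 and 10.7. It was 3.06 and 2.56 for other cytosolic, 2.50 and 2.23 for ER, 1.19 and 1.10 for mitochondrial and 1.08 and 1.03 for TRiC genes. This factor falls toward 1 as the mean falls, and the mean per thinned cell was 12.1 and 9.10 UMIs for the inducible genes but 1.09 and 0.921 for the mitochondrial and 1.44 and 1.33 for the TRiC genes. Its excess over 1 divided by the mean was 1.14 and 1.07 for the inducible, 0.280 and 0.252 for the ER, 0.182 and 0.155 for the other cytosolic, 0.176 and 0.104 for the mitochondrial and 0.058 and 0.022 for the TRiC genes. On this scale the inducible genes still stood apart, while the mitochondrial chaperones lay near the other cytosolic genes with isotype. In single genes the Fano factor was 7.90 and 6.50 for Hspa1a and 8.11 and 6.76 for Hspa1b, ranks 7 to 9 from the highest of 2852 genes, whose median was 1.07 and 1.06. Hsp90aa1 (5.30 and 4.42), Hspa5 (3.80 and 3.03) and Dnajb1 (3.67 and 3.56) followed. The 10% of DETCs with most inducible UMIs held 36.0% and 35.5% of them.

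**Figure D3:**
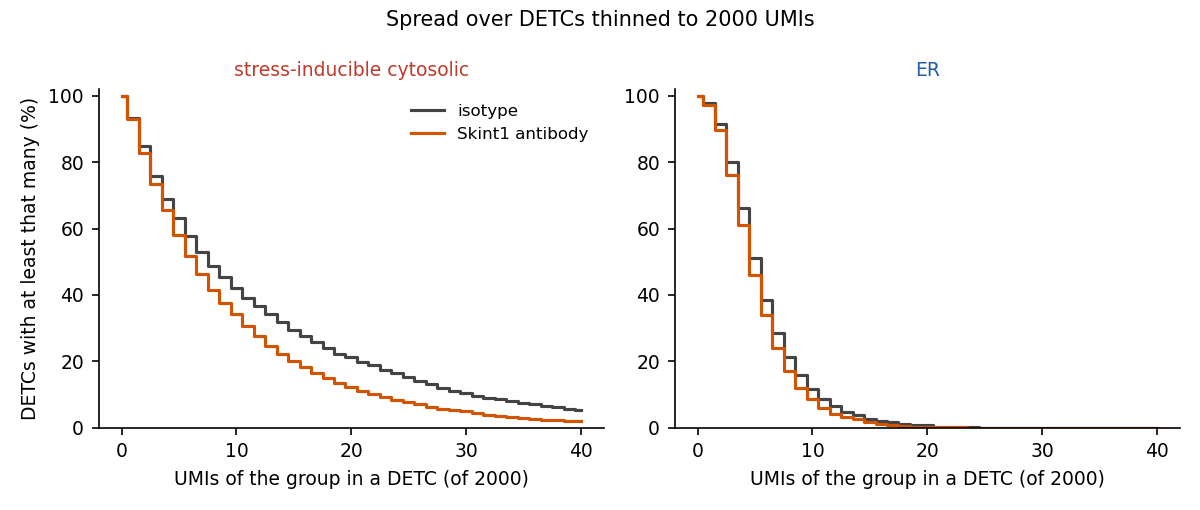
Share of DETCs, thinned to 2000 UMIs, that held at least the number of UMIs on the x axis, for the stress-inducible cytosolic genes (left) and the ER genes (right), with 1 line per library. At 20 stress-inducible UMIs the shares were 21.4% (isotype) and 12.3% (Skint1 antibody). Both left curves stand near 93% at 1 UMI, a level that most cells reach. The lower and upper quartiles were 3 and 17 stress-inducible UMIs with isotype and 2 and 12 with Skint1 antibody.

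Shares of thinned DETCs with a UMI are given for the 4 genes past the size rule as a description, since these were chosen for their lower level. The share was also smaller for Pdia3 (42.2% and 40.1%), whose CPM was higher with Skint1 antibody. Hspa1a was found in 56.4% and 50.1% of DETCs (62.5% and 56.9% unthinned) and Hspa1b in 58.8% and 51.9% (65.2% and 59.9% unthinned). Hsph1 was found in 16.0% (14.8 to 17.3) and 10.3% (9.48 to 11.2), unthinned 25.4% and 17.0%. Hspa5 was found in 63.7% and 59.6% (77.0% and 73.4% unthinned). Barcodes of 1 to 100 UMIs held Hspa1a at 1711 and 1289 CPM, Hspa1b at 1098 and 893 CPM, Hsph1 at 72.0 and 65.9 CPM and Hspa5 at 566 and 567 CPM, and the part of free RNA in these shares was not tested. In ILCs thinned to the same depth the share with Hspa1a was 22.1% and 17.6%.

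Counts of some inducible genes rose together across cells. Across thinned DETCs, Pearson's r between Hspa1a and Hspa1b was 0.64 (isotype, 3410 cells) and 0.56 (Skint1 antibody, 4743 cells), although reads of such close copies may be exchanged. Between Hspa1b and Hsp90aa1 it was 0.43 and 0.31, and between Dnajb1 and the constitutive Hspa8 0.36 and 0.32. Weaker pairs of inducible genes were Hspa1a with Hsph1 (0.25 and 0.17) and Dnajb1 with Hsph1 (0.20 and 0.13). Dnajb4 had r of 0.07 and 0.06 with the sum of Hspa1a and Hspa1b. Coefficients of Hspa5 were higher with some cytosolic chaperones than with the ER HSP90, at 0.22 and 0.20 with Hspa8 and at 0.20 and 0.15 with Dnajb1, but at 0.06 and 0.05 with Hsp90b1. The ER J-domain gene Dnajb9 was between them (0.12 and 0.09), and with Calr the coefficients of Hspa5 were 0.11 and 0.04. Hspa8 and Dnajb1 had means of 3.43 and 1.21 UMIs per thinned isotype DETC, and Hsp90b1 had 0.719. Counting noise lowers r more in scarcer genes, so these coefficients do not compare the partners at 1 level. Pairs within TRiC and the mitochondrial pair (Hspd1 with Hspe1, 0.05 and 0.01) were near 0. Such genes are scarce (Hspd1 at a mean of 0.287 and 0.232 UMIs per thinned DETC). Counting noise then keeps r low, so these values cannot show whether they vary together. The summed inducible genes had r of 0.29 and 0.27 with the summed immediate early genes, −0.01 and −0.03 with the mitochondrial share of a cell and −0.00 and −0.08 with its UMIs. Cells of a library share its preparation and sequencing, and all these coefficients describe the 2 libraries only.

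**Figure D4:**
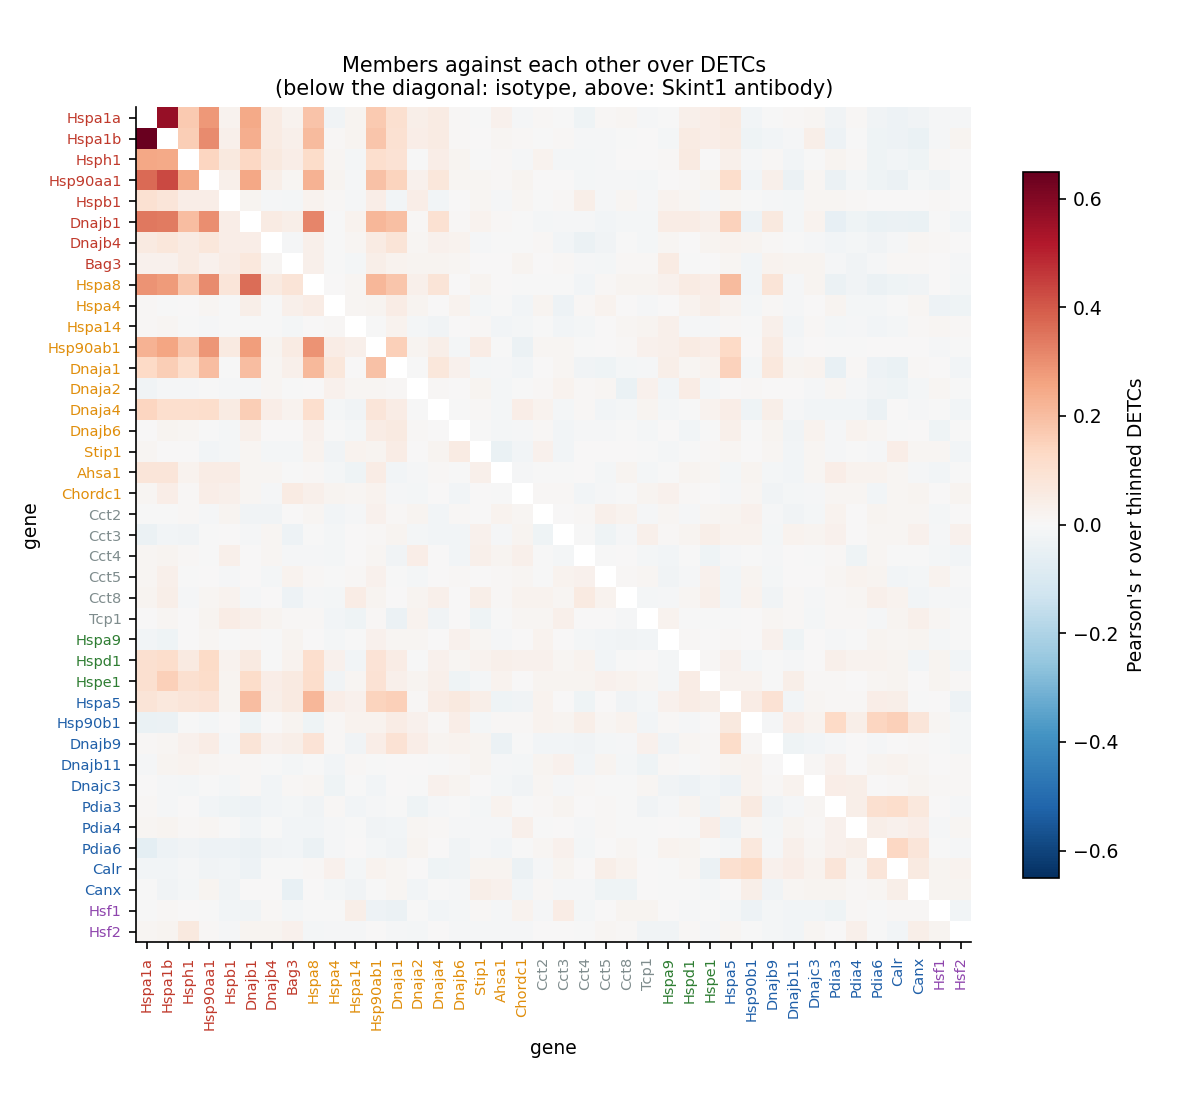
Pearson's r over thinned DETCs for each pair of the 40 genes, isotype below the diagonal and Skint1 antibody above it (colour scale from −0.65 to 0.65). A block formed by Hspa1a, Hspa1b, Hsph1, Hsp90aa1, Dnajb1, Hspa8, Hsp90ab1 and Dnaja1 stands out in both, with Hspa5 joining Hspa8 (0.22 and 0.20).

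Ranked by r with the sum of Hspa1a and Hspa1b in the library where it was lower, among 2544 genes found in at least 10% of thinned DETCs of each library, Hsp90aa1 had rank 1 (0.44 and 0.33) and Dnajb1 rank 2 (0.38 and 0.27), with Hspa8, Hsp90ab1 and Hsph1 at ranks 4, 6 and 8. The 10 genes outside the list with the highest values included Ubb (0.32 and 0.24), Jun (0.28 and 0.19), Gm8797, Gm17056, Junb, Cd69, Phlda1, Ier2 and Fos. Ubb encodes ubiquitin, and Jun, Junb, Ier2 and Fos are immediate early genes. Their own ratios between libraries lay on both sides of 0, with Ier2 at 509 and 622 CPM (0.29, 0.25 to 0.33), Fos at 3766 and 3699 CPM (−0.03, −0.04 to −0.01) and Jun at 925 and 785 CPM (−0.24, −0.27 to −0.20).

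The gap in the inducible genes was present in each stratum of DETCs that was examined. In 4 strata of rising immediate early UMIs, cut at 10, 23 and 38 of 2000, the inducible genes stood at 2498, 6554, 6913 and 8056 CPM with isotype and at 2106, 4861, 4939 and 5822 CPM with Skint1 antibody. The log2 ratios were −0.25, −0.43, −0.49 and −0.47, so the level rose with the immediate early genes in both libraries and the gap was narrowest in the lowest stratum. In 4 strata of mitochondrial share the ratios were −0.51, −0.48, −0.37 and −0.45. In 4 strata of UMIs per cell they were −0.23, −0.41, −0.52 and −0.62, wider in deeper cells. Hspa5 was higher with Skint1 antibody in the lowest immediate early stratum, at 283 and 321 CPM (0.18, 0.07 to 0.30), against −0.37, −0.34 and −0.40 in the 3 above it.

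Other lymphocytes of the same libraries held fewer inducible transcripts. In αβ T cells the group stood at 1997 CPM (1900 to 2097) and 2139 CPM (2041 to 2240), a log2 ratio to DETCs of the same library of −1.59 (−1.67 to −1.52) and −1.04 (−1.11 to −0.98). In ILCs it stood at 1133 CPM (1029 to 1245) and 1845 CPM (1743 to 1952), ratios of −2.41 (−2.55 to −2.27) and −1.26 (−1.34 to −1.17). After thinning, the median αβ T cell and the median ILC held 1 inducible UMI in each library, beside 7 and 6 in DETCs. The counting intervals do not cover the choice of barcodes: the αβ T ratios became −1.77 and −2.03 without barcodes shared with ILCs or rich in Trdc, and the ILC ratios −1.0 and −0.70 without the gene limit and −1.97 and −0.13 with at most 5% mitochondrial UMIs (16 and 20 ILCs). Free RNA at 4547 and 3866 CPM lay above both classes, and how much of their level came from it was not tested.

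With the barcodes used here the contrast was narrower in the other groups, but in Skint1 antibody ILCs the ER ratio was the wider one without the gene limit (−0.81, beside −0.70 for the inducible sum) and with at most 5% mitochondrial UMIs (−0.63, beside −0.13). The other cytosolic genes had ratios to DETCs of −0.75 and −0.55 in αβ T cells and of −1.07 and −0.82 in ILCs. ER genes stood in αβ T cells at 1903 and 2127 CPM (ratios to DETCs −0.50 and −0.25) and in ILCs at 2121 and 2322 CPM (−0.35 and −0.12). TRiC was slightly higher in ILCs than in DETCs (0.21, 0.05 to 0.37, and 0.45, 0.33 to 0.57). The mitochondrial chaperones had ratios of −0.53 and −0.09 in αβ T cells and of −0.26 and −0.15 in ILCs.

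Gene by gene, with a rule of 1.5-fold the same way in both libraries, 8 of 32 listed genes at 50 CPM or more were lower in αβ T cells than in DETCs, beside 16.5% of 2731 genes. They were 6 inducible genes (Hspa1a, Hspa1b, Hsph1, Hsp90aa1, Dnajb1 and Dnajb4) with Hsp90ab1 and Dnaja1. None was higher, beside 7.29% of all genes. In ILCs 12 of 33 were lower, beside 19.9%, and 0 higher, beside 10.1%. The 12 were Hspa1a, Hspa1b, Hsph1, Hsp90aa1 and Dnajb1, the other cytosolic genes Hspa8, Hsp90ab1, Dnaja1 and Dnajb6, and the ER genes Hspa5, Dnajb9 and Dnajc3. Hspa5 stood at 360 and 375 CPM in ILCs (−1.47, −1.73 to −1.23, and −1.07, −1.25 to −0.88), while Hsp90b1 stood at 436 and 379 CPM there (0.26, 0.03 to 0.48, and −0.05, −0.24 to 0.13). Dnajb1 stood in ILCs at 41.8 and 109 CPM (−3.84, −4.65 to −3.14, and −2.23, −2.59 to −1.90).

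**Figure D5:**
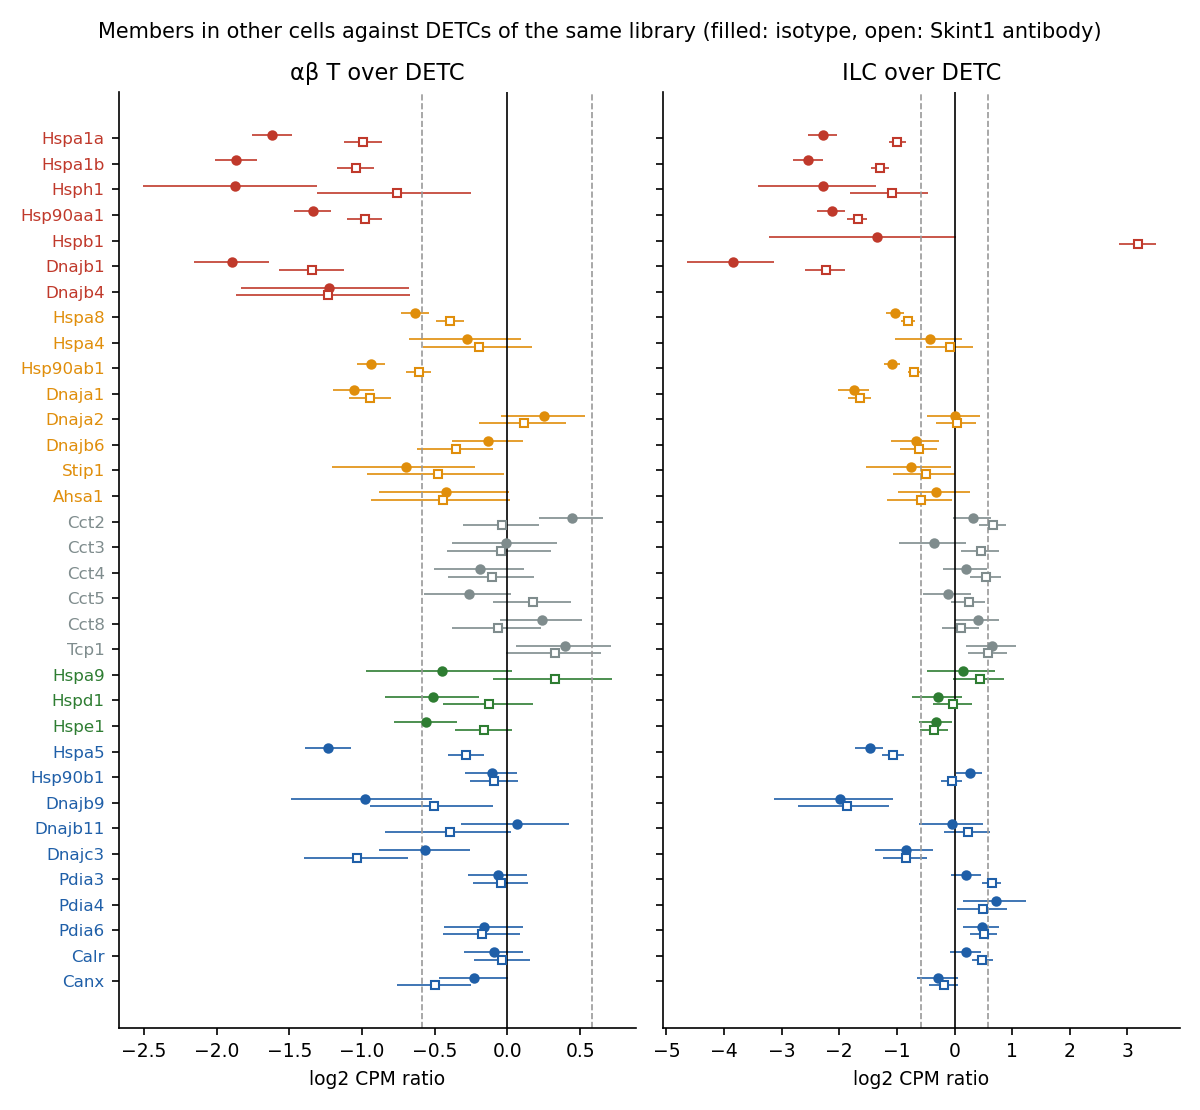
Log2 ratio of CPM in αβ T cells (left) and ILCs (right) over DETCs of the same library, with 95% counting intervals, filled circles for isotype and open squares for Skint1 antibody, and dashed lines at 1.5-fold. Only genes at 50 CPM or more in the mean of the class and DETCs over both libraries are drawn. The inducible genes drawn lie left of both dashed lines in each class except Hspb1 in ILCs. It lies there at −1.34 with isotype and at 3.18 with Skint1 antibody. In αβ T cells Hspb1 (1.02 and −1.90) was below that level and is not drawn.

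Between treatments, αβ T cells and ILCs did not show the lower inducible level of DETCs, but their barcodes were mixed. The inducible sum had a log2 ratio, Skint1 antibody over isotype, of 0.10 (0.00 to 0.20) in αβ T cells and 0.70 (0.54 to 0.86) in ILCs. Of the αβ T barcodes, 18 and 44 also held at least 3 Trdc UMIs, and in these the inducible genes stood at 4914 and 5356 CPM, near DETCs. In the 179 and 169 αβ T barcodes with fewer they stood at 1695 and 1170 CPM, a ratio of −0.53 (−0.67 to −0.40). In ILCs, 14 of 82 (17.1%) and 31 of 139 (22.3%) barcodes held at least 3 UMIs of keratinocyte or myeloid markers, and 7 keratinocyte markers summed to 452 and 4558 CPM. Without those barcodes the inducible sum in ILCs was 990 and 1330 CPM (0.43) and Hspb1 was 0 and 34.5 CPM, in place of 10.4 and 162 CPM. Inducible UMIs sat in few ILCs: after thinning, the 10% with most inducible UMIs held 49.7% and 67.5% of them, and the mean of the others was 1.14 and 1.15 UMIs. The 10% were chosen by that same count, so these means do not test which cells carried the difference. ILCs at 0 were 31.2% and 37.5%, and 1 of 77 and 5 of 136 held at least 20. The direction in αβ T cells thus turned with the barcodes counted. That in ILCs stayed in this case but turned (−0.15) when barcodes over 2500 genes were added, as did that in αβ T cells (−0.08).

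Barcodes outside the 3 classes, and free RNA, differed between libraries in the same direction as DETCs. Barcodes over 2500 genes that passed the DETC gate (312 and 287) stood at 5236 and 3587 CPM for the inducible genes (−0.55). Kept barcodes in no class (428 and 678) stood at 3699 and 2764 CPM (−0.42), and those over 12% mitochondrial UMIs (185 and 169) at 3551 and 3233 CPM (−0.14). In free RNA the level was 4547 and 3866 CPM. Its part in the gap between DETCs was not tested.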

How the data were processed

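The deposited matrices hold counts of UMIs per gene and barcode, which the authors made with Cell Ranger 3.0.2 against mm10 from 10x 3′ v3 libraries of cells freed from ear epidermis by warm trypsin and sorted. No normalization had been applied, and barcodes had not been filtered. Cell Ranger counts a read only where it matches a single gene. Here UMIs were summed by library and class over the barcodes kept (Python 3.11.15, numpy 2.4.6, scipy 1.17.1, pandas 2.3.3) and divided by the class total (CPM). Levels have exact Poisson, shares Clopper-Pearson and log2 ratios exact conditional binomial intervals at 95%, without pseudocount, and ratios across genes used those at 50 CPM or more. A barcode may belong to both αβ T and ILC (9 and 14). Doublets were marked with Scrublet (scanpy 1.11.5), 3.92% and 5.28% of 4896 and 6594 barcodes with at least 500 genes, and removed only in an alternative. The interval code was tested on simulated data. Sequences are from RefSeq and gene positions from GENCODE. All 40 genes are named. Of other lists, genes at 50 CPM or more with a log2 ratio past 0.32 in DETCs are named, with the 10 genes most like Hspa1a and Hspa1b except 1 that is not reported here, and Ubb, Ddit3, Herpud1, Atf4, Atf6, Dnajc10, Sdf2l1, Hspa4l, Dnajb2 and Bag2, chosen after their values were seen. The genes, their grouping and all lists were chosen with earlier results of these data known. Cct6a was not used here.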

Additional observations from a re-analysis of the deposited data

Results flagged for a closer look

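In 4 cases a class moved between libraries in the direction opposite to DETCs. The difference itself was not tested, since each class in each treatment is 1 library. The stress-inducible cytosolic sum had a log2 ratio, Skint1 antibody over isotype, of 0.10 in αβ T cells and 0.70 in ILCs, beside −0.45 in DETCs. The ER sum had ratios of 0.16 in αβ T cells and 0.13 in ILCs, beside −0.09 in DETCs, and without Hspa5 they were 0.0050 (−0.11 to 0.12) in αβ T cells, 0.15 in ILCs and 0.039 in DETCs. The inducible ratio of αβ T cells was −0.53 in the barcodes with fewer than 3 Trdc UMIs, and that of ILCs was 0.43 without barcodes that held keratinocyte or myeloid UMIs. Outside the 10% of thinned ILCs with most inducible UMIs the mean was 1.14 and 1.15 UMIs. In the barcodes of the αβ T class with fewer than 3 Trdc UMIs the ER ratio was 0.06 (−0.05 to 0.17), with 0 inside its interval.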

How the results depend on the processing

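Each treatment group is 1 library, so no replicate could be left out. No paired analysis was possible because the groups hold 1 sample each and no test was run. The log2 ratio of the inducible sum in DETCs (−0.45) kept its direction under all alternatives tried and left its counting interval with at most 5% mitochondrial UMIs (−0.51), the stricter DETC gate (−0.48), centring on the median gene (−0.42), totals without mitochondrial and ribosomal protein genes (−0.43) and equal weight per cell (−0.41). In the order mitochondrial limit, centring and totals, the other cytosolic sum (−0.17) became −0.19, −0.14 and −0.15, and the ER sum (−0.09) −0.026, −0.066 and −0.075, or −0.12 with equal weights. TRiC (−0.08) became −0.026 with the mitochondrial limit. The 40 genes' own ratios stayed within their interval in 374 of 400 values and changed sign in 0. Genes past the size rule as lower, 4 at 50 CPM, were 7 at 20 CPM and with no filter. Hspa5 was no longer among them with the mitochondrial limit (−0.29) or without the gene limit (−0.32).

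The class ratios moved more. For the inducible sum in αβ T cells over DETCs the isotype value (−1.59) was −1.39 without the gene limit, −1.44 with the mitochondrial limit, −1.46 with the other totals and −1.77 without barcodes shared with ILCs or rich in Trdc, and the Skint1 antibody value (−1.04) was −1.13, −0.91 and −2.03 in the last 3 and −1.17 with equal weights. For ILCs over DETCs the isotype value (−2.41) was −1.0 without the gene limit, −1.97 with the mitochondrial limit (16 ILCs), −2.22 with the other totals and −2.61 without barcodes with keratinocyte or myeloid UMIs, and the Skint1 antibody value (−1.26) was −0.70, −0.13 (20 ILCs), −1.06 and −1.73, with −1.39 without doublets and −1.40 with equal weights. The ER sum in αβ T cells was −0.60 and −0.54 with the mitochondrial limit, −0.37 and −0.11 with the other totals and, in the Skint1 antibody library, −0.42 without shared or Trdc-rich barcodes. In ILCs it was −0.73 and −0.81 without the gene limit, −0.030 and −0.63 with the mitochondrial limit, −0.15 and, reversed, 0.076 with the other totals, and −0.043 with equal weights in the Skint1 antibody library.

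The treatment ratio of the inducible sum in αβ T cells (0.10) reversed without the gene limit (−0.080), with the mitochondrial limit (−0.20), with equal weights (−0.0017) and without shared or Trdc-rich barcodes (−0.70). In ILCs (0.70) it reversed without the gene limit (−0.15), and was 1.33 with the mitochondrial limit and 0.43 without keratinocyte or myeloid UMIs. The share of DETCs with an inducible UMI (93.4% and 93.0%) was 97.3% and 96.6% unthinned and 84.9% and 83.9% at 1000 UMIs, since fewer UMIs leave more cells at 0. For the other changes the cause was not tested. The alternatives on barcodes with Trdc, keratinocyte or myeloid UMIs, and those on treatment ratios in αβ T cells and ILCs, were chosen after seeing the data. Depth limits genes below 50 CPM and the ILC classes of 82 and 139 barcodes.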

Other observations

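Cycling DETCs (at least 2 thinned UMIs of Mki67, Top2a, Cdk1, Ccnb2, Birc5, Cenpf, Ube2c and Tpx2) numbered 53 in the isotype and 76 in the Skint1 antibody library. TRiC stood at 874 CPM in cycling and 737 CPM in other DETCs with isotype (log2 ratio 0.24, 0.05 to 0.43) and at 781 and 700 CPM with Skint1 antibody (0.16, −0.01 to 0.32). The inducible genes stood at 5208 and 6048 CPM with isotype (−0.22, −0.29 to −0.14) and at 4167 and 4395 CPM with Skint1 antibody (−0.08, −0.15 to −0.01). Hspa5 stood at 683 and 1012 CPM with isotype (−0.57, −0.79 to −0.35) and at 701 and 788 CPM with Skint1 antibody (−0.17, −0.35 to 0.01). No test between these cells was run, since each set comes from 1 library.

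The 2 inducible HSP70 copies, between which the split of reads is uncertain, were counted in different proportions in DETCs and in free RNA. Hspa1b was at 1790 and 1224 CPM in DETCs, beside 1715 and 1157 CPM for Hspa1a. In barcodes of 1 to 100 UMIs Hspa1a was at 1711 and 1289 CPM and Hspa1b at 1098 and 893 CPM. Hspa1a was also the higher copy in ILCs (353 and 308 CPM with isotype, 582 and 500 CPM with Skint1 antibody) and in isotype αβ T cells (559 and 491 CPM), but not in Skint1 antibody αβ T cells (581 and 594 CPM). The cause was not tested.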
